A study of Schizosaccharomyces pombe with 2 samples.

Results

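The genes described here are the ribosomal RNA (rRNA) gene copies on the nuclear chromosomes of the fission yeast Schizosaccharomyces pombe. They were chosen as every counted feature on chromosomes I, II and III whose identifier starts with SPRRNA, which gave 47 of the 12684 features. By annotated product, 36 of them are 5S genes, 3 are 5.8S genes, 5 are 18S genes and 3 are genes of the large rRNA, called 25S in yeast. Native RNA was read on nanopores to find the RNAs made at a locus that holds a long non-coding RNA and the U14 small nucleolar RNA. The samples form 1 group of 2 biological replicates of vegetative haploid h- cells grown in minimal medium (EMM). Although labelled wt, every cell carried leu1-32 and pat1-L95G::kanR, an allele of the Pat1 kinase gene, so no library of another genotype, medium or stage was compared here. Total RNA was depleted of rRNA and then polyadenylated in vitro, so the rRNA reads below are those that passed a step meant to remove them.

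rRNA is the structural and catalytic core of the ribosome. The small subunit holds the 18S rRNA and the large subunit holds the 25S, 5.8S and 5S rRNAs. RNA polymerase I makes a long precursor that is cut into the 18S, 5.8S and 25S rRNAs, from a tandem repeat that in S. pombe lies at the ends of chromosome III. RNA polymerase III makes 5S rRNA from short genes with a promoter inside the transcribed part, which is bound by TFIIIA. In S. pombe the 5S genes are not in the tandem repeat but scattered over all the chromosomes, and a TATA element upstream also takes part in their transcription. RNA polymerase III stops at a run of T after the gene.

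The library of replicate 1 held 12871729 counts over all features and that of replicate 2 held 12579850. CPM are counts scaled to a common library total of 1000000, and a count of 0 allows up to 3 counts, or 0.233 CPM in replicate 1 and 0.238 CPM in replicate 2. With RNA from whole cultures, fewer cells of a type and less RNA per cell cannot be told apart. All 6 transcripts listed as markers of h- cells were present, at 13.6 to 341 CPM. The 3 markers of the opposite mating type lay between 0.0777 and 2.59 CPM, and the 4 matched meiotic markers between 0.0397 and 1.69 CPM, so the libraries carried the markers of the labelled h- cells. The labels call the libraries biological replicates, and with 2 of them each mean ± SD rests on n = 2.

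Annotated length did not sort the copies into rRNA classes. The 5S genes were annotated at 80 to 440 nt, with a median of 150 nt, and only 13 of the 36 lay between 110 and 130 nt. The window of 140 to 180 nt held 10 features, of which 7 were 5S genes by product and 3 were the 5.8S genes. Classes were therefore taken from the annotated product, and the sequence under each 5S gene was compared with the others. All 47 intervals were the same in the deposited table and in the RefSeq annotation of assembly ASM294v3, whose coordinates are used throughout.

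A stretch of 119 nt, here called the core, was found in 34 of the 36 annotated 5S genes. In 23 of them it was identical to the annotated interval of SPRRNA.10, and these 23 places are the only exact matches in the genome. In the other 11 it carried 1 to 3 substitutions, which makes 10 distinct cores in all, 7 of them held by a single copy. The cores below are the consensus and 6 of its variants, shown because they include the copies with the most reads and the substituted copy with the fewest. Capitals mark the bases that differ from the consensus, and positions are counted from 1 at the 5′ end of the core.
SPRRNA.10: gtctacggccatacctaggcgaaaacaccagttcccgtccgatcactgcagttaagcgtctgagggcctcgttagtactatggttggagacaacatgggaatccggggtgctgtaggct
SPRRNA.15: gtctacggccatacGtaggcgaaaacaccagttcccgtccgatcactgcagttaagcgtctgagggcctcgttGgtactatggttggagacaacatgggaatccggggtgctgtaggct
SPRRNA.35: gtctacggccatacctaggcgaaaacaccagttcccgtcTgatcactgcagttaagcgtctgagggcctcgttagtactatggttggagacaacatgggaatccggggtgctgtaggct
SPRRNA.05: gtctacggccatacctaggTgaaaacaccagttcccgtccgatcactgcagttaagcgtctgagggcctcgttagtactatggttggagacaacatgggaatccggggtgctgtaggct
SPRRNA.12: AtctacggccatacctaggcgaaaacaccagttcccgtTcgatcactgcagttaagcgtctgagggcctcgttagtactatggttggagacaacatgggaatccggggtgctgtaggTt
SPRRNA.40: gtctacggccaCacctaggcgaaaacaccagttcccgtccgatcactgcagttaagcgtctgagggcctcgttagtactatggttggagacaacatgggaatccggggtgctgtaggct
SPRRNA.37: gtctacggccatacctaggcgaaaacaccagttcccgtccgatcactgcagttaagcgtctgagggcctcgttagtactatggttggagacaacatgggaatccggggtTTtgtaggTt

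The consensus core is shown at chrI:149658-149776 on the plus strand. The substituted cores lie at chrI:3547900-3548018 on the minus strand (SPRRNA.15), chrII:2322733-2322851 on the plus strand (SPRRNA.35), chrIII:1690945-1691063 on the plus strand (SPRRNA.05), chrI:912230-912348 on the minus strand (SPRRNA.12), chrII:2442701-2442819 on the minus strand (SPRRNA.40) and chrII:4161619-4161737 on the minus strand (SPRRNA.37). SPRRNA.15 carried C15G and A74G, SPRRNA.35 carried C40T, and SPRRNA.05 carried C20T. SPRRNA.12 carried G1A, C39T and C118T, SPRRNA.40 carried T12C, and SPRRNA.37 carried G110T, C111T and C118T. Of the substituted copies not printed, SPRRNA.04 has the core of SPRRNA.05 and SPRRNA.30 has that of SPRRNA.40. SPRRNA.11 carried C20T and C118T, SPRRNA.53 carried C68T and SPRRNA.18 carried T119C. C20T was thus found in 3 copies, C118T in 3 and T12C in 2.

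The remaining 2 annotated 5S genes have no core of this kind and are called divergent. SPRRNA.41 (chrII:3171566-3171645, minus strand) is 80 nt long, and the stretch closest to the consensus, searched in the interval and 60 nt on each side, lay at an edit distance of 20. SPRRNA.54 (chrII:3096968-3097078, minus strand) is 111 nt long and lay at an edit distance of 28, searched in the same way. Their annotated intervals are shown because they are the copies least like a 5S gene.
SPRRNA.41: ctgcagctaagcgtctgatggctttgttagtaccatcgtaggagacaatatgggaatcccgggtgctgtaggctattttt
SPRRNA.54: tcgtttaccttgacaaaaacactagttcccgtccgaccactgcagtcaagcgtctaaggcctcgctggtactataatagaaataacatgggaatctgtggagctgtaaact

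The reads were spread very unevenly over the 5S copies. The 36 genes together held 1108 reads in replicate 1 and 969 in replicate 2. SPRRNA.15 alone held 265 and 197 of these, while the median copy was 18.4 times lower than SPRRNA.15 on mean CPM. The coefficient of variation (CV) of mean CPM over the copies was 171%, with 176% in replicate 1 and 166% in replicate 2. The 7 copies with the highest summed count were all substituted and held 69.9% of the 5S reads in replicate 1 and 67.4% in replicate 2. The copies shared 1 pair of libraries and much of their sequence, so these values are descriptions and no test was made between copies.

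**Figure D1:**
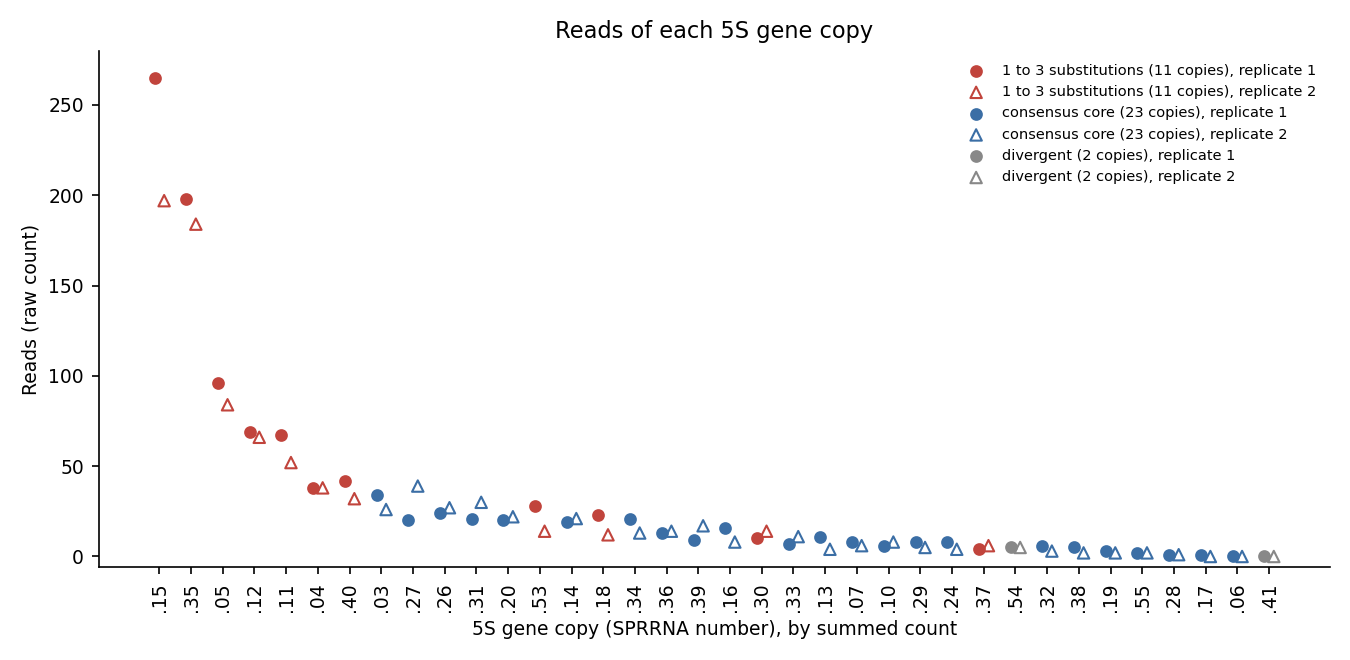
Reads of each of the 36 annotated 5S gene copies (vertical axis, raw count) in order of summed count, with filled circles for replicate 1 and open triangles for replicate 2. Copies with 1 to 3 substitutions (red) take the first 7 places, led by SPRRNA.15 with 265 and 197 reads, and the copies with the consensus core (blue) reach at most 39 reads in a library.

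Among the substituted copies, those on chromosome I were SPRRNA.15, SPRRNA.12, SPRRNA.11, SPRRNA.53 and SPRRNA.18. SPRRNA.15, annotated from 31 nt before to 11 nt after its core, was the highest 5S copy in both libraries, with 20.6 CPM in replicate 1 and 15.7 CPM in replicate 2. SPRRNA.12 had 69 and 66 reads (5.36 and 5.25 CPM) in replicates 1 and 2. SPRRNA.11, annotated exactly at its core, had 67 and 52 reads (5.21 and 4.13 CPM). Both were thus well under SPRRNA.15. SPRRNA.12 differs from the consensus at 3 positions and SPRRNA.15 at 2, and a relation of counts to the number of substitutions was not tested. SPRRNA.53, whose annotated start lies inside the core, had 28 and 14 reads. SPRRNA.18 had 23 and 12 reads, so these last copies overlapped in range with the higher consensus copies described further on.

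On chromosome II the substituted copies were SPRRNA.35, SPRRNA.40, SPRRNA.30 and SPRRNA.37. SPRRNA.35 had 198 and 184 reads (15.4 and 14.6 CPM) and was the second copy in rank. SPRRNA.40 had 42 and 32 reads, whereas SPRRNA.30, which has the same core, had 10 and 14. SPRRNA.40 was thus the higher of this pair in both libraries, with counts that lay closer together in replicate 2. SPRRNA.37, with its 3 substitutions in the last 10 nt of the core, was the lowest of the substituted copies, with 4 and 6 reads.

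Chromosome III held SPRRNA.05 and SPRRNA.04, which share the core with C20T. SPRRNA.05 had 96 and 84 reads (7.46 and 6.68 CPM), and SPRRNA.04 had 38 and 38 (2.95 and 3.02 CPM). As in the pair that carries T12C, the same copy was the higher in both libraries. Reads within the shared core match both copies of a pair equally well, and how such reads were counted is not given. These counts therefore cannot be tied to a copy.

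The 23 copies with the consensus core had 0 to 34 reads in replicate 1, with a median of 8. In replicate 2 they had 0 to 39 reads, also with a median of 8. Reads within the shared core match all of these copies equally well, and how such reads were counted is not given. The counts below are those listed for each copy and cannot be tied to it. On chromosome I, SPRRNA.20 had 20 and 22 reads in replicates 1 and 2. SPRRNA.14 had 19 and 21 reads, and SPRRNA.16 had 16 and 8. These were the highest consensus copies of the chromosome. SPRRNA.13 had 11 and 4 reads, SPRRNA.10 had 6 and 8, and SPRRNA.19 had 3 and 2. A single read in replicate 1 and none in replicate 2 fell on SPRRNA.17, which lies under the limit that a count of 0 allows.

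Chromosome II carried 10 consensus copies. SPRRNA.27 had 20 and 39 reads, and its 39 in replicate 2 was the highest value of any consensus copy in a library. SPRRNA.31 had 21 and 30 reads, SPRRNA.34 had 21 and 13, and SPRRNA.36 had 13 and 14. The annotated interval of SPRRNA.34 is the core alone, while that of SPRRNA.31 runs 121 nt past it, so copies with similar counts had different annotated extents. SPRRNA.39 had 9 and 17 reads, SPRRNA.33 had 7 and 11, and SPRRNA.29 had 8 and 5. SPRRNA.32, the longest annotated 5S gene at 440 nt, had only 6 and 3 reads. SPRRNA.38 had 5 and 2 reads, and SPRRNA.28 had 1 in each library.

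On chromosome III, SPRRNA.03 had 34 and 26 reads, which made it the highest consensus copy by summed count, at 60. SPRRNA.26 had 24 and 27 reads. The other consensus copies of the chromosome were low, with 8 and 6 reads on SPRRNA.07, 8 and 4 on SPRRNA.24, and 2 and 2 on SPRRNA.55. No read was counted on SPRRNA.06 in either library. Of the divergent genes, both on chromosome II, SPRRNA.41 also had 0 reads in both libraries and SPRRNA.54 had 5 in each.

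Substituted copies held more reads than consensus copies as a group, with overlap. The median was 42 reads in replicate 1 and 38 in replicate 2 over the 11 substituted copies, against 8 and 8 over the 23 consensus copies. The substituted copies held 75.8% and 72.1% of the 5S reads, and the consensus copies 23.7% and 27.3%. In summed count, 7 of the 11 substituted copies lay above the highest consensus copy, and 16 of the 23 consensus copies lay above the lowest substituted copy. Per 100 nt of annotated interval, the medians were 1.90 CPM for substituted copies and 0.425 CPM for consensus copies. The 7 copies whose core occurs at a single place had a median of 67 and 52 reads, and the 4 whose core occurs at 2 places a median of 40 and 35. How reads that match several copies equally well were counted is not given in the sources used here, and the part of that step in the difference was not tested.

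Annotated length moved little with the level. Over the 36 copies, Spearman's rho of mean CPM and annotated length was 0.20, and over the 23 consensus copies it was 0.30, both descriptions across copies that share libraries and sequence. The 7 genes annotated exactly at the core held 125 and 113 reads in sum, with medians of 9 and 13. The 25 annotated longer than the core, among them SPRRNA.15 and SPRRNA.35, held 948 and 835 in sum, with medians of 16 and 14.

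The flanks of the cores share the elements of RNA polymerase III genes. The letters TATA were found on the gene's strand in the 40 nt before the core of 27 of the 34 copies (79.4%), among them 9 of the 11 substituted and 18 of the 23 consensus copies. The share was 77.2% before the 171 nuclear tRNA genes, which the same polymerase transcribes, and 27.4% before all annotated features. In 18 copies a TATA began 29 nt before the core. Counted on the same strand, TTTT was present in the 20 nt after the core of 30 of the 34 copies (88.2%), after 93.6% of tRNA genes and after 22.5% of all features, and in the 5S copies it began 1 to 10 nt past the core. The 7 copies without TATA in this window had a median of 21 and 26 reads in replicates 1 and 2, with ranges of 2 to 69 and 2 to 66. The 27 copies with it had medians of 10 and 12, but ranges of 0 to 265 and 0 to 197, and they include the highest copy, SPRRNA.15. The 4 copies without TTTT after the core (SPRRNA.07, SPRRNA.32, SPRRNA.37 and SPRRNA.38) had 4 to 8 reads in replicate 1 and 2 to 6 in replicate 2, against medians of 19.5 and 14 and ranges of 0 to 265 and 0 to 197 in the 30 copies with it. These counts were looked at after the values were seen and overlap between the sets, and no test was made. The sets also differ in core. SPRRNA.07, SPRRNA.32 and SPRRNA.38 are consensus copies, a group with medians of 8 and 8 reads, while 10 of the 11 substituted copies have TTTT. Among the 4 is the lowest substituted copy, SPRRNA.37, whose 20 nt after the core (chrII:4161599-4161618, minus strand) are shown with those of SPRRNA.38 (chrII:4210361-4210380, minus strand) and of the highest copy, SPRRNA.15 (chrI:3547880-3547899, minus strand), with TTTT in capitals.
SPRRNA.37: ccttctttattattgctgtt
SPRRNA.38: ccttctttattattgctatt
SPRRNA.15: catcTTTTTTTgaaaccaat

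The upstream windows below compare the highest pair of 5S copies with a pair of near neighbours and with a pair that has identical windows, and capitals mark TATA.
SPRRNA.15: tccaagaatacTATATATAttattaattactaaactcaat
SPRRNA.35: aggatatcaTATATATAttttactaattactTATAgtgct
SPRRNA.05: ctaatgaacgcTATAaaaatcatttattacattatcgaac
SPRRNA.06: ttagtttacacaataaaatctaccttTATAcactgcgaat
SPRRNA.04: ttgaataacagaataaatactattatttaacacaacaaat
SPRRNA.03: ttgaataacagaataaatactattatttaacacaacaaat

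SPRRNA.05 and SPRRNA.06 are the closest pair of 5S genes, 11048 nt apart on the same strand of chromosome III. Their upstream windows lie at chrIII:1690905-1690944 and chrIII:1702084-1702123. Both windows hold TATA, which begins 29 nt before the core in SPRRNA.05 and 14 nt before it in SPRRNA.06. SPRRNA.05 had 96 and 84 reads and SPRRNA.06 had none. The core of SPRRNA.06 is the consensus found at 23 places, and how reads that match several places were counted is not given. SPRRNA.04 and SPRRNA.03, 104017 nt apart, have the same 40 nt upstream (chrIII:1474378-1474417 and chrIII:1370153-1370192, minus strand) and cores that differ by C20T. Their counts were close, with 38 and 38 reads for the substituted SPRRNA.04 and 34 and 26 for the consensus SPRRNA.03. No other pair of copies differed at fewer than 8 of the 40 positions. The windows of SPRRNA.15 and SPRRNA.35 lie at chrI:3548019-3548058 on the minus strand and chrII:2322693-2322732 on the plus strand, and each holds overlapping TATA matches.

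The 5S genes lay far from each other and often beside other genes. The median distance to the nearest 5S gene was 86321 nt, and 10 of the 36 copies lay within 1000 nt of a tRNA gene. No 5S gene overlapped a feature of its own strand. An antisense long non-coding RNA was annotated over 23 of them, 7 substituted and 15 consensus copies and a divergent gene. At 10 of these the antisense RNA had no read in either library, and the highest antisense counts, 67 and 70 reads, were those of SPNCRNA.3896 over SPRRNA.20, which itself had 20 and 22. By chromosome, the 12 copies on I held 528 and 406 reads, the 16 on II held 370 and 376, and the 8 on III held 210 and 187.

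The replicates ranked the 5S copies alike. Spearman's rho of the counts was 0.93 and Pearson's r of log2(count + 1) was 0.96 over the 36 copies, which are not independent replicates. Reads were found in both libraries for 33 copies. The exact Poisson 95% intervals of the libraries, which cover counting error only, overlapped for 35 of the 36. CPM was higher in replicate 1 for 19 copies and in replicate 2 for 15.

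Differences between the libraries were tested for every feature with at least 10 reads in sum, by a two-sided exact binomial test with Benjamini-Hochberg adjustment at 0.05. It sets these libraries, not conditions, against each other. It called 4.19% of the 6752 features tested, 2.18% higher in replicate 1 and 2.01% higher in replicate 2. None of the 28 5S copies with at least 10 reads was called, by this test or by a chi-square test on the same counts, and 3 had an unadjusted p under 0.05. The largest effect by p was that of SPRRNA.15, with a log2 ratio of replicate 1 over replicate 2 of 0.39 (counting SE 0.14, adjusted p = 0.0785 in the exact test). SPRRNA.15 was called with TMM factors (adjusted p = 0.0195) or DESeq2 size factors (adjusted p = 0.0198), which raise every log2 ratio by 0.06. SPRRNA.27 was at -0.98 (SE 0.39, adjusted p = 0.177 in the exact test) and SPRRNA.53 at 0.94 (SE 0.47, adjusted p = 0.349). At these read numbers the smallest SE of a 5S copy was 0.14, that of SPRRNA.15. Its ratio of 0.39 was not called on library totals, so differences between the libraries well above 1 SE could go undetected.

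**Figure D2:**
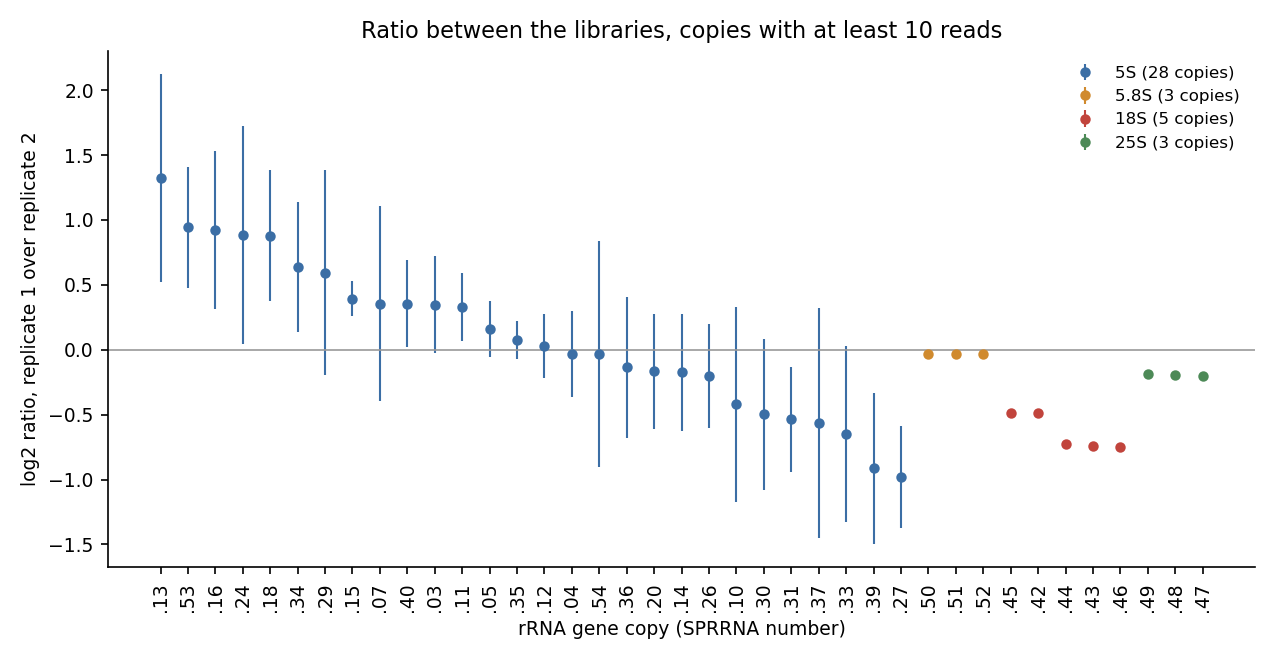
Log2 ratio of replicate 1 over replicate 2 on library totals (vertical axis) for the 39 rRNA gene copies with at least 10 reads in sum, coloured by class, with bars of 1 counting standard error either side. The 28 5S copies spread on both sides of 0 with long bars, the 3 5.8S copies lie at -0.03, the 3 25S copies near -0.20, and the 5 18S copies between -0.75 and -0.49.

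The 11 rRNA genes of the tandem repeat formed the other end of the range in counts. They lie on chromosome III within the first and last stretches of the assembled sequence, which is 2452883 nt long. Each of the 3 5.8S genes held about as many reads as the others, with 2307683 and 2303470 on SPRRNA.50, 2301793 and 2301719 on SPRRNA.51, and 2297645 and 2299624 on SPRRNA.52. Their CV over copies was 0.150%, against 171% over the 5S copies. Reads of these identical genes cannot be tied to a copy, so the 0.150% does not measure how far the genes differ in level. The 3 genes have the same 165 nt, shown here for SPRRNA.50 (chrIII:9842-10006, minus strand) as the most counted rRNA of the libraries.
SPRRNA.50: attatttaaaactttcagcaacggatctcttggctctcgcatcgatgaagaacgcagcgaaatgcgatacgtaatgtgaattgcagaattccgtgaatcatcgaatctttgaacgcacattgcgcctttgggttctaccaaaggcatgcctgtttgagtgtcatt

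The 5.8S genes took 53.7% of all counts in replicate 1 and 54.9% in replicate 2 (54.3% ± 0.867, SD, n = 2). If a read was counted at each copy it matches, these sums over identical copies exceed the number of reads, which was not tested. The 5S genes took 0.00861% (Wilson 95% interval 0.00812 to 0.00913) and 0.0077% (0.00723 to 0.0082), which is 0.00816% ± 0.00064 (SD, n = 2). There were 6234 counts on 5.8S genes for each count on a 5S gene in replicate 1 and 7126 in replicate 2, although both RNAs are part of the large subunit. The 171 tRNA genes, also made by RNA polymerase III, had 9739 and 7246 reads, and the 6 snRNA genes had 179862 and 154336. On mean CPM per 100 nt, the median was 0.755 for the 36 5S genes and 0.446 for tRNA genes, against 435 for snRNA genes.

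**Figure D3:**
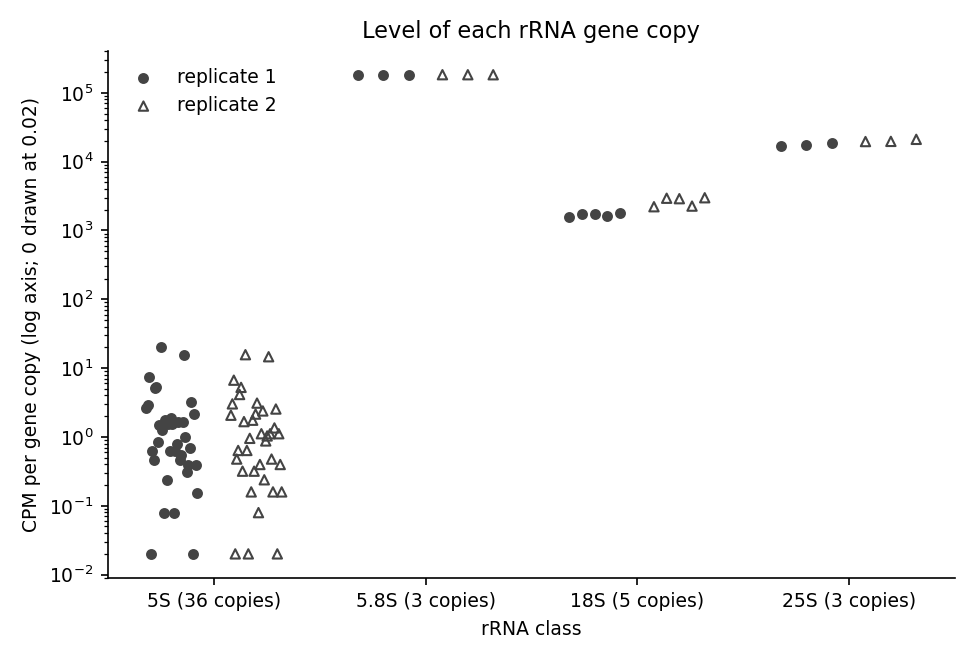
Level of each rRNA gene copy in CPM (vertical axis, log scale, with copies at 0 drawn at 0.02), by class, with filled circles for replicate 1 and open triangles for replicate 2. The 36 5S copies spread from 0 to 20.6 CPM, and every copy of the other classes lies far above them, with the 3 5.8S copies highest and close to each other.

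Reads on the 25S genes numbered 677546 and 758782 in replicates 1 and 2, which made up 5.26% and 6.03% of all counts (5.65% ± 0.543, SD, n = 2). SPRRNA.49, at the right end of the chromosome (chrIII:2443713-2447197), had 237759 and 265029 reads. SPRRNA.48 (chrIII:16927-20411) had 221170 and 247597, and SPRRNA.47 (chrIII:6057-9541) had 218617 and 246156. The sequences of the 3 are identical over 3485 nt, and the count listed for SPRRNA.47 was 91.9% and 92.9% of that for SPRRNA.49 in replicates 1 and 2. The counting of reads that match several copies is not given. Counts on identical copies of the repeat, of 5.8S, 25S or 18S, therefore cannot be tied to the copy they are listed under. The same holds for 5S reads that lie within a core shared by several copies.

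The 18S genes held 109059 and 167148 reads, or 0.847% and 1.33% of all counts (1.09% ± 0.340, SD, n = 2). The full-length copies, of 1842 nt and identical sequence, were SPRRNA.46 with 22864 and 37566 reads, SPRRNA.43 with 22586 and 36957, and SPRRNA.44 with 22570 and 36405. The other copies are cut off by the ends of the assembled chromosome. SPRRNA.42 (chrIII:1-1390) matches the first 1390 nt of the full-length gene with 1 substitution and had 20277 and 27814 reads. SPRRNA.45 (chrIII:2451883-2452883) matches the first 1001 nt without a substitution and had 20762 and 28406. Relative to SPRRNA.46, the truncated copies thus stood at 88.7% and 90.8% in replicate 1, but at 74.0% and 75.6% in replicate 2.

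**Figure D4:**
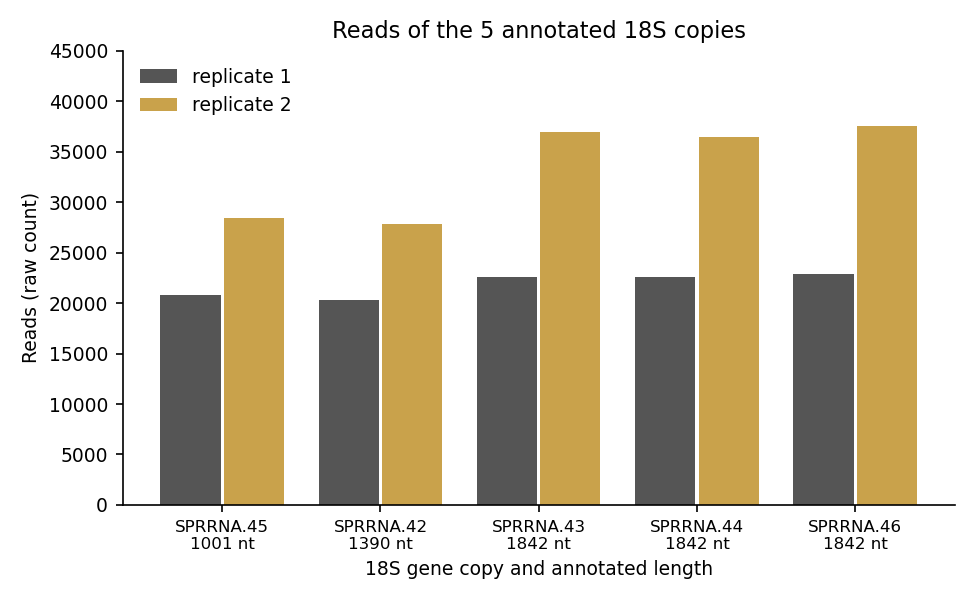
Reads of the 5 annotated 18S copies (vertical axis, raw count from 0), grouped by copy with the annotated length under each name, in grey for replicate 1 and yellow for replicate 2. All copies had more reads in replicate 2, and the gap was wider for the 3 full-length copies (36405 to 37566 in replicate 2) than for the truncated SPRRNA.45 and SPRRNA.42 (28406 and 27814).

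All 11 copies of the repeat were called higher in replicate 2 by the exact binomial test with Benjamini-Hochberg adjustment on library totals. Over all features tested, 2.01% were called in that direction, most of them far less deeply read. Copies of a class share their sequence, but for 1 substitution in SPRRNA.42, so the 11 calls are not independent of each other. The sizes differed by class. The log2 ratio of replicate 1 over replicate 2 was -0.75 to -0.72 for the full-length 18S copies and -0.49 for each truncated one. It was -0.20 to -0.19 for the 25S copies and -0.03 for each 5.8S copy, with an adjusted p of at most 3.99e-111 for the 5.8S genes. At the common biological coefficient of variation of 6.33% (edgeR), the SD of a log2 ratio between 2 libraries is 0.13, so the 5.8S difference was smaller than that spread and the 18S differences were larger. With TMM or DESeq2 factors the 5.8S ratio turned to 0.03, and the 3 genes were called higher in replicate 1. Among the 21 other features with at least 48091 reads, the lowest count of a repeat copy, 19 were called, 16 of them higher in replicate 1, with log2 ratios between -0.20 and 0.65. Of 884 other features with at least 1000 reads in sum, 0 had a log2 ratio below -0.49. The ratio of 25S to 18S reads was 6.21 in replicate 1 and 4.54 in replicate 2. The share of all counts outside rRNA was 40.2% and 37.7%, and whether the depletion step differed between the libraries was not tested.

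The factors that transcribe these genes were measured in the same libraries. Of 15 listed genes of RNA polymerase I and its factors, 13 matched, and 1 was called, where 4.19% of all features tested were called. It was spp27, a factor of RNA polymerase I initiation, with 264 and 335 reads (log2 ratio -0.38, adjusted p = 0.0414 in the exact test). The highest by CPM were nuc1, the largest subunit, at 48.4 CPM, rpa2 at 41.2, rpa43 at 32.2, and rrn3, the initiation factor, at 25.02. The median log2 ratio of the list was -0.15, against -0.06 over all features tested.

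None of the 24 listed genes of RNA polymerase III and its factors was called by the exact test, and 3 had an unadjusted p under 0.05. Over all features tested 4.19% were called, so a count of 0 among 24 says little about these genes. Their median log2 ratio was -0.03. tbp1, the TATA-binding protein, stood highest at 70.9 CPM, followed by rpc40 at 40.2, rpc25 at 39.1 and rpc19 at 29.1, subunits of the polymerase. sfc2, the gene of TFIIIA, which binds the promoter inside 5S genes, had 50 reads in each library. Among the 5S RNP genes, whose proteins bind 5S rRNA or load it into the large subunit, 6 of 7 matched and 2 were called higher in replicate 1, where 2.18% of all features tested were. Calls were more common among deeply read features, as the 19 of 21 given above show. These were rpl1102, with 12649 and 11541 reads (log2 ratio 0.10, adjusted p = 5.54e-06), and rpl502, with 6499 and 5917 (0.10, adjusted p = 0.00305). Their paralogues rpl501, with 7161 and 7082 reads, and rpl1101, with 7310 and 6857, were not called.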

How the data were processed

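Per the study's methods, native RNA reads were base-called by the authors with dorado (super accuracy) and aligned by minimap2 with its splice setting. Not given in the sources used here are the counter, its handling of reads with several positions, any filter and the genome build. The deposited values were handled as estimated counts of reads per feature, not normalized. All were whole numbers, so rounding changed nothing. Header names of the deposited table are shifted by 1 cell, and columns were aligned by content. The 2 mitochondrial rRNA features, listed at 0 reads, were left out.

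CPM was computed over all 12684 features. Products and sequences came from RefSeq (ASM294v3), in which 12602 identifiers matched a locus tag. Classes follow the annotated product, not the annotated length first planned, because length mixed the 5S and 5.8S genes. 5S intervals were compared without gaps with the 119 nt of SPRRNA.10, and for intervals with no such core the smallest edit distance was taken over the interval and 60 nt on each side. TATA and TTTT were searched on the gene's strand only. Log2 ratios add 0.5 to each count, and class ratios use sums. Features with at least 10 reads in sum entered the exact binomial test (scipy 1.17.1, Benjamini-Hochberg at 0.05, expected share from library totals). The test was tried on simulated counts with counting error only, so that trial does not cover spread between biological replicates. The BCV came from edgeR 4.0.16 with TMM factors and an intercept-only design. DESeq2 1.42.0 size factors were computed over the features with at least 10 reads. Alternatives were these factors, totals without rRNA, other count minimums, a chi-square test, a 2-fold minimum, another denominator for shares and each library left out. Every rRNA gene copy is named, and the pathway lists give up to 4 genes by mean CPM, any gene called, and genes with a stated role in 5S synthesis. The members, lists and tests were chosen with earlier results of these data known. Intervals cover counting error only.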

Additional observations from a re-analysis of the deposited data

How the results depend on the processing

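The count of rRNA gene copies that differed between the libraries (11) was 11 or 12 under every other scaling, count minimum and test, and 0 with a minimum of 2-fold. The direction depended on the scaling. On library totals 0 were higher in replicate 1 and 11 in replicate 2, while TMM and DESeq2 size factors each gave 4 and 8, since the calls of the 3 5.8S genes turned round and SPRRNA.15 was added. The count of 5S copies that differed (0) became 1 when TMM factors were used and 1 when DESeq2 size factors were used, SPRRNA.15 in both. The log2 ratio of the summed 5.8S counts, -0.033 on library totals, was 0.030 under TMM, 0.027 under DESeq2 size factors and -0.12 on totals without rRNA. For 18S it was -0.59, -0.59 and -0.74, and for 25S -0.13, -0.14 and -0.29, since each scaling shifts every log2 ratio by the same amount (0.06, 0.06 and -0.09). Shares of the sum of protein-coding and class counts were 0.031% for 5S, 67.4% for 5.8S, 3.96% for 18S and 17.7% for 25S, because the denominator is smaller. Over the 28 5S copies with at least 10 reads, the CV was 146% and the highest copy stood at 12.3 times the median. Sorting by annotated length was first planned, and product replaced it after the data were seen, because length mixed the 5S and 5.8S genes. Taking as 5S only the 13 copies of 110 to 130 nt gave a share of 0.0014%, a CV of 116% and a ratio of 4.55. This length rule leaves out SPRRNA.15 and SPRRNA.35. The log2 ratio of the summed 5S counts, 0.16 on library totals, was 0.22 under TMM and 0.22 under DESeq2 size factors. It was 0.07 on totals without rRNA and 0.26 over the copies of 110 to 130 nt. Without SPRRNA.15, a choice made after seeing the data, the ratio was 0.09. Dividing CPM by length, added likewise, gave a CV of 172% and a ratio of 14.9. With each library left out in turn, the 5S share ranged from 0.0077% to 0.00861%, the 5.8S share from 53.7% to 54.9%, the 18S share from 0.847% to 1.33%, the 25S share from 5.26% to 6.03%, the CV from 166% to 176% and the highest copy from 15.8 to 22.1 times the median. Of the 36 5S copies, 8 had fewer than 10 reads in sum and were not tested. No paired analysis was possible because the libraries form a single group.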
